A study of Mus musculus with 8 samples.

Results

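Tubulin isotypes are the products of the separate genes that encode the alpha and beta subunits of microtubules. The 10 isotypes described here were chosen by gene name alone: Tuba1a, Tuba1b, Tuba1c and Tuba4a encode alpha-tubulin, and Tubb2a, Tubb2b, Tubb4a, Tubb4b, Tubb5 and Tubb6 encode beta-tubulin. They are 10 of the 54532 genes in the count table, and all 10 passed the filter on low counts. Whole lungs were sequenced from mice with CCSP-Cre and a Cre-activated K-rasG12D allele (CC-LR), a model of K-ras mutant lung adenocarcinoma on a C57BL/6 background. Every mouse carried both alleles, so lungs without mutant K-ras are not analysed here. Cre is expressed from the club cell secretory protein locus and turns on mutant K-ras in the lung epithelium, while RNA was taken from all cells of the lung. At 14 weeks of age, 4 Control mice were compared with 4 mice given TTI-101, a small-molecule inhibitor of STAT3, for 4 weeks. The labels give no sex, and what the Control mice received in these libraries is not given in the sources used here.

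Microtubules are hollow polymers of alpha- and beta-tubulin pairs. Cells use them as tracks for transport, as the mitotic spindle during division and, in multiciliated airway cells, as the core of the motile cilium. The isotypes of each family are nearly alike through most of the protein and differ most at the C-terminal tail, which lies on the outside of the microtubule and carries most of the enzymatic modifications. Tubb4b and Tubb4a are beta isotypes used in the axoneme of motile cilia, and Tuba1a is abundant in multiciliated cells and neurons. Tuba1b, Tuba1c and Tubb5 are general isotypes made in most cells, and dividing cells use them for the spindle. In whole lung RNA, fewer cells of a type and less RNA per cell cannot be told apart.

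The coding sequence of the C-terminal tail of beta isotypes is shown because the beta isotypes were less alike there than over the rest of the coding sequence. Over the last 60 aligned columns, Tubb4b was 66.7% identical to Tubb5, against 82.9% over the rest. The difference was small between Tubb4a and Tubb4b, at 81.7% against 83.3%. The last 75 coding bases, stop codon included, were read 5′ to 3′ on the coding strand of GRCm38 from the GENCODE M21 annotation. Capitals mark bases that differ from Tubb5, or have no Tubb5 base opposite them, after alignment of the whole coding sequences. Tubb5 bases that are missing from another isotype are not marked. The sequences lie at chr17:35834982-35835056 (Tubb5, minus strand), chr2:25222308-25222382 (Tubb4b, minus strand), chr17:57080690-57080764 (Tubb4a, minus strand) and chr13:34074468-34074542 (Tubb2a, minus strand).
Tubb5: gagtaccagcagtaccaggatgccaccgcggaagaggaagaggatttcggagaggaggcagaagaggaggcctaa
Tubb4b: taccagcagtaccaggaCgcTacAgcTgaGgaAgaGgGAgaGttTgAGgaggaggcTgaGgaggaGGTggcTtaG
Tubb4a: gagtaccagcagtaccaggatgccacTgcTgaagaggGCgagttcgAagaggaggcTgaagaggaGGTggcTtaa
Tubb2a: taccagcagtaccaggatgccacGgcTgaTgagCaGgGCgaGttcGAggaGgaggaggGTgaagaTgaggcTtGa

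The tails of the beta isotypes held 20 bases in Tubb4b, 10 in Tubb4a and 16 in Tubb2a that differed from Tubb5 or had no Tubb5 base opposite. Missing bases are not in these counts. Over the whole coding sequence, Tubb4b was 82.2% identical to Tubb5 and 83.2% identical to Tubb4a, while Tubb2a and Tubb2b were 96.5% identical.

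Among alpha isotypes, the coding sequence of Tuba1a was 98.3% identical to Tuba1b and 97.1% identical to Tuba1c, while Tuba4a was 84.7 to 85.2% identical to the other alpha isotypes.

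These identities bear on the counts. Of the 100-base windows along its annotated transcript, 69.5% in Tuba1b, 65.1% in Tuba1a and 53.4% in Tuba1c were also present in a transcript of another gene, and the share was 36.9% in Tubb2a, 29.2% in Tubb4b and 27.7% in Tubb2b. No such window was found in Tuba4a, Tubb4a, Tubb5 or Tubb6. How the authors' counting assigned reads that match several genes is not given in the sources used here, so the division of reads among Tuba1a, Tuba1b and Tuba1c, and between Tubb2a and Tubb2b, is uncertain. If such reads were left out, the level of each gene with shared windows, Tubb4b included, would be too low beside genes without them. Tuba4a overlaps Stk16 on the opposite strand over 1379 bases, and the strand setting of the counting is not given either.

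The depth was 16446481 to 26873509 counts per Control library and 16075855 to 25920509 counts per TTI-101 library, of which the 10 isotypes together received 21112 to 38270. Control 4 stood apart from the other 7 libraries, at 101.1 on the first principal component of log2 CPM (45.2% of the variance) against -39.3 to 17.9, and 5.56% of its counts were mitochondrial against 2.01 to 2.85%. Estimates of several isotypes, classes and gene lists are therefore also given without it. Single genes outside the 10 isotypes, and the ratios of isotype pairs, are given only with all 8 mice. The lung label was checked against markers of alveolar type 2 cells, which summed to 29137 to 68037 CPM over the 8 mice.

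No isotype passed the test between TTI-101-treated and control mice after adjustment for the 17138 genes tested. At an adjusted p under 0.05, the quasi-likelihood test of edgeR gave 0 of the 10 isotypes and 0 genes in all (0% of the genes tested), and DESeq2 and limma-voom also gave 0 of the 10, with 4 and 0 genes in all. At an unadjusted p under 0.05, edgeR gave 2 of the 10 isotypes, Tuba1c and Tuba4a, both lower in TTI-101-treated lungs, where 6.61% of all genes passed (3.02% higher and 3.58% lower). DESeq2 gave 1, Tuba1c, where 5.32% of its genes passed. Without Control 4, edgeR gave 1 isotype, again Tuba1c, at an unadjusted p under 0.05, where 3.03% of all genes passed. The groups overlapped for all 10 isotypes, where 2.96% of all genes had groups that did not overlap. The median log2 fold change (TTI-101 over Control) of the 10 was -0.02, with 5 lower and 5 higher, beside 0.00 over all genes.

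**Figure D1:**
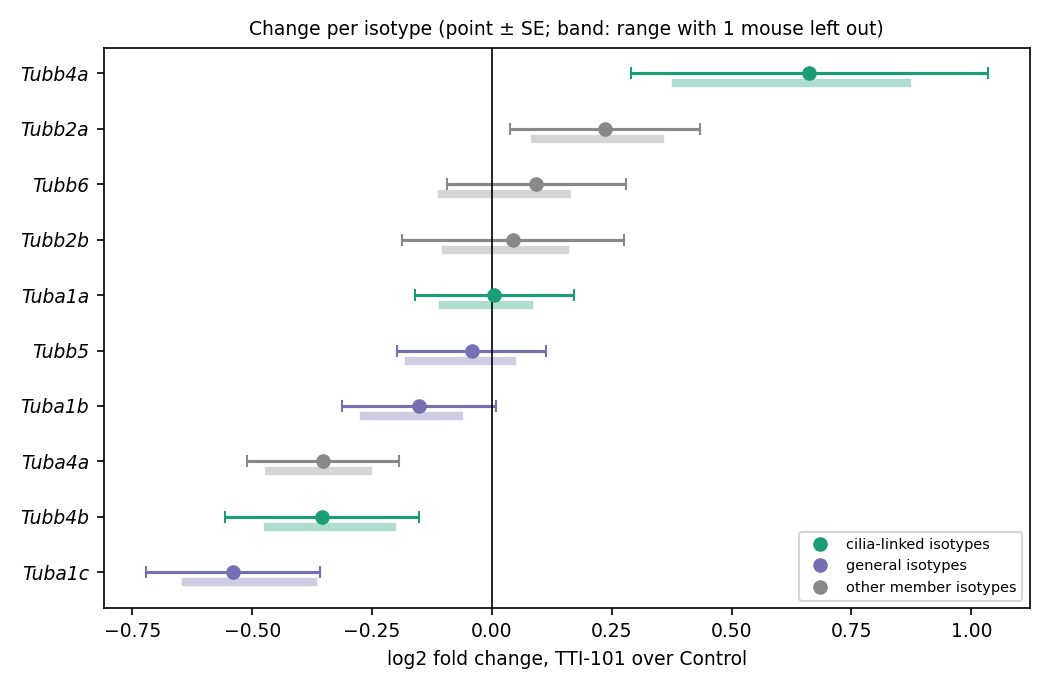
The log2 fold change (TTI-101 over Control, x axis) of each isotype (y axis), with points and bars for the edgeR estimate ± its standard error and pale bands for the range with 1 mouse left out, colored by cilia-linked, general or other isotypes. Tubb4a lies farthest to the right at 0.66 and Tuba1c farthest to the left at -0.54, and the cilia-linked isotypes lie on both sides of 0.

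The isotypes differed in level by far more than the groups differed. Levels between genes were compared as CPM per kilobase of the gene's summed exon length, averaged over all 8 mice. The length was not corrected for windows shared with other genes, which made up 65.1% in Tuba1a, 69.5% in Tuba1b and 29.2% in Tubb4b. Tubb5, Tubb4a, Tuba4a and Tubb6 had no such window. The order between genes is thus uncertain to the extent that the counting left out reads matching several genes. The order also depends on the length used. Tubb4b was highest at 201 ± 46.8 (SD, n = 8), followed by Tuba1a at 171 ± 23.2 and Tuba1b at 150 ± 20.5. These 3 could not be ordered from their ranges, although Tubb4b was above Tuba1a in 6 of 8 mice and Tuba1a was above Tuba1b in 7 of 8.

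Tubb5 followed at 85.5 ± 10.4 (SD, n = 8), with every mouse below every Tuba1b value, and Tubb2a at 39.5 ± 8.52 lay below Tubb5 without overlap. The separation of Tubb5 from Tuba1b depended on the length used. The summed exon length was 3327 bases in Tubb5 and 1875 in Tuba1b, against 2649 and 1743 bases in their annotated transcripts. Tuba1c (28.7 ± 7.90), Tuba4a (16.9 ± 3.22), Tubb6 (15.5 ± 2.90) and Tubb4a (12.2 ± 5.51) followed, and each of these 4 overlapped the isotype before it in the order. Tubb2b, an isotype best known from developing neurons, was the lowest at 2.55 ± 0.426, below Tubb4a by 4.79 times and with no overlap. The most and the least abundant of the cilia-linked isotypes, Tubb4b and Tubb4a, thus sat near opposite ends of the order.

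**Figure D2:**
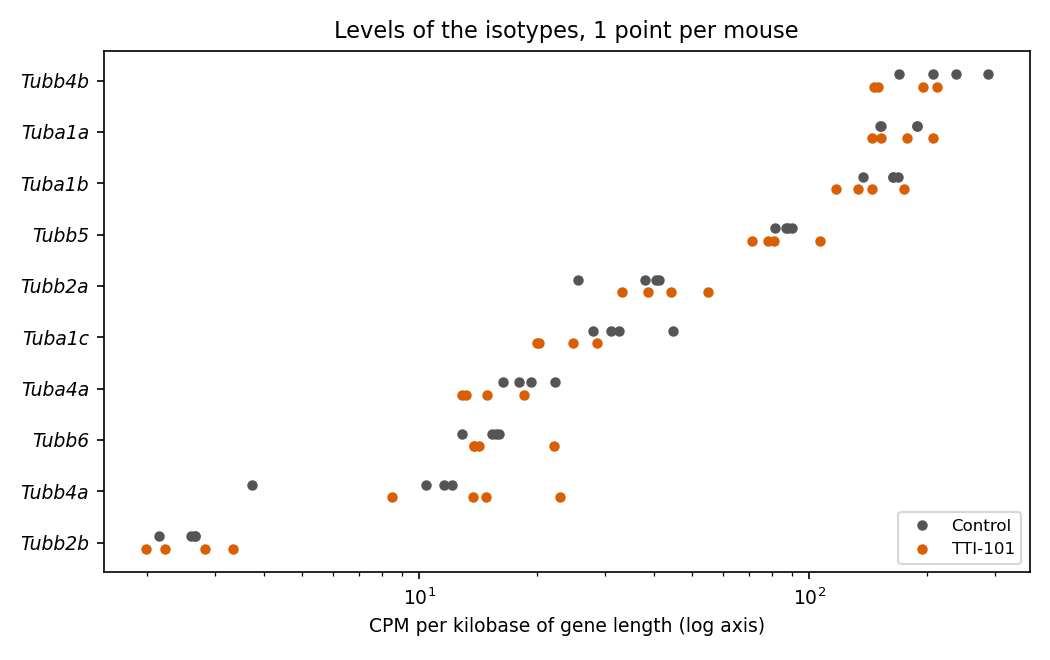
Level of each isotype in each mouse, as CPM per kilobase of gene length on a log axis (x axis), with 1 point per mouse in gray for Control and orange for TTI-101. The order runs from Tubb4b at a mean of 201 to Tubb2b at 2.55, and the orange and gray points overlap for every isotype.

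Among the cilia-linked isotypes, Tubb4b was lower, Tubb4a higher and Tuba1a almost level in TTI-101-treated lungs, and none passed the test. Tubb4b (ENSMUSG00000036752, chromosome 2, 25222160 to 25224702, minus strand) was at 355, 434, 496 and 598 CPM in Control 1 to 4 and at 314, 444, 409 and 306 CPM in TTI-101 1 to 4. TTI-101 1 and 4 lay below every control mouse, TTI-101 2 and 3 lay within the control range, and all 4 lay below the control mean.

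Tubb4b averaged 471 ± 103 CPM in control mice and 368 ± 68.7 CPM in treated mice (SD, n = 4 each). In edgeR this was a log2 fold change of -0.35 (standard error 0.20, edgeR unadjusted p = 0.109, adjusted p = 0.657). Control 4 held the highest value, and without it the log2 fold change of Tubb4b was -0.21. With the lowest control left out, Control 1, the estimate was -0.47 (edgeR unadjusted p = 0.0429, adjusted p = 0.351). Without Control 1, 13.7% of all genes had an edgeR unadjusted p under 0.05.

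Tubb4a (ENSMUSG00000062591, chromosome 17, 57080066 to 57087782, minus strand), an isotype also made in neurons and glia, moved the other way. Its CPM was 25.8, 27.0, 23.1 and 8.32 in Control 1 to 4 and 30.5, 19.0, 51.0 and 33.02 in TTI-101 1 to 4. Treated mice 1, 3 and 4 lay above every control mouse, and TTI-101 2 lay below all controls but Control 4.

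Tubb4a averaged 21.1 ± 8.65 CPM in control mice and 33.4 ± 13.2 CPM in treated mice (SD, n = 4 each). The log2 fold change of 0.66 (standard error 0.37, edgeR unadjusted p = 0.104, adjusted p = 0.657) was the largest of the 10 isotypes in either direction and had the largest standard error. It was 0.41 without Control 4, 0.38 without TTI-101 3 and 0.87 without TTI-101 2, the last with an edgeR unadjusted p of 0.0347. Without TTI-101 2, 14.2% of all genes had an edgeR unadjusted p under 0.05.

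Tuba1a (ENSMUSG00000072235, chromosome 15, 98949837 to 98953703, minus strand) was at 275, 340, 340 and 273 CPM in Control 1 to 4 and at 276, 322, 375 and 261 CPM in TTI-101 1 to 4. Both groups spanned nearly the same range, with TTI-101 3 highest and TTI-101 4 lowest of all mice. Tuba1a had a log2 fold change of 0.01 (standard error 0.17, edgeR adjusted p = 0.996), and its sign changed with the mouse left out, from -0.10 to 0.08.

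The general isotypes were all lower on average in TTI-101-treated lungs, and Tuba1c had the lowest unadjusted p of the 10. Tuba1c (ENSMUSG00000043091, chromosome 15, 99029891 to 99038110, plus strand) was at 63.9, 70.7, 74.4 and 102 CPM in Control 1 to 4 and at 45.9, 65.1, 56.7 and 46.3 CPM in TTI-101 1 to 4. TTI-101 1, 3 and 4 lay below every control mouse, and TTI-101 2 lay just above the lowest of them.

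Tuba1c averaged 77.8 ± 16.8 CPM in control mice and 53.5 ± 9.20 CPM in treated mice (SD, n = 4 each). This gave a log2 fold change of -0.54 (standard error 0.18, edgeR unadjusted p = 0.0134, adjusted p = 0.657). It was -0.37 without Control 4, which held the highest value. The unadjusted p of Tuba1c was under 0.05 in all 18 alternatives, from 0.00674 to 0.0415, and its smallest adjusted p among them was 0.241. Its log2 fold change ranked at the 7.92 percentile of all genes tested.

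Tuba1b (ENSMUSG00000023004, chromosome 15, 98931425 to 98934565, minus strand), the most abundant of the general isotypes per kilobase, was at 257, 308, 316 and 307 CPM in Control 1 to 4 and at 272, 249, 328 and 219 CPM in TTI-101 1 to 4. TTI-101 2 and 4 lay below every control mouse and TTI-101 3 above. Tuba1b had a log2 fold change of -0.15 (standard error 0.16, edgeR adjusted p = 0.780).

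Tubb5 (ENSMUSG00000001525, chromosome 17, 35833921 to 35838306, minus strand) was at 272, 290, 301 and 292 CPM in Control 1 to 4, the narrowest control range among the abundant isotypes, and at 261, 237, 354 and 270 CPM in TTI-101 1 to 4. TTI-101 1, 2 and 4 lay below all controls, and TTI-101 3 lay above all of them. Tubb5 had a log2 fold change of -0.04 (standard error 0.16, edgeR adjusted p = 0.950), and its sign turned to 0.04 without TTI-101 2.

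**Figure D3:**
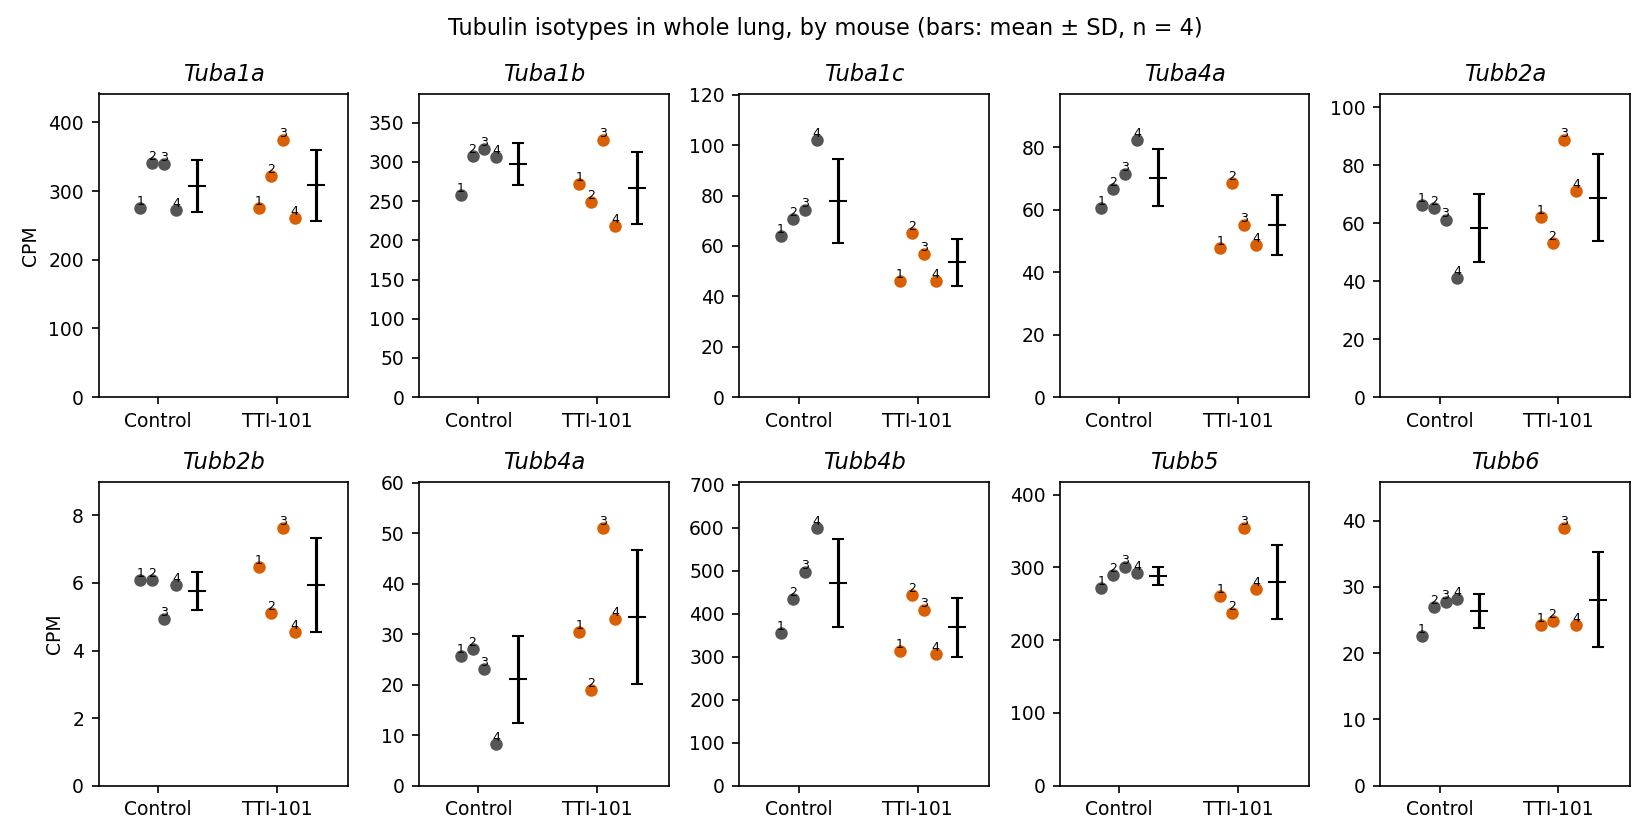
CPM (y axis, from 0) of each isotype in each mouse, gray for Control and orange for TTI-101 (x axis), with mouse numbers beside the points and black bars for the mean ± SD of 4 mice. For Tuba1c and Tuba4a, 3 of 4 treated mice lie below every control mouse, and for Tubb4a 3 of 4 lie above.

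The cilia-linked isotypes were then compared with the general ones. The median log2 fold change was 0.01 over the 3 cilia-linked isotypes (range -0.35 to 0.66) and -0.15 over the 3 general isotypes (range -0.54 to -0.04), a difference of 0.16. It was 0.09 without Control 4, 0.11 without TTI-101 2 and 0.04 without both. The range of the cilia-linked isotypes spanned nearly that of all 10, with estimates on both sides of 0.

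Within each mouse, the mean log2 CPM of the cilia-linked isotypes minus that of the general isotypes was -0.28, -0.22, -0.29 and -0.91 in Control 1 to 4 and -0.10, -0.17, 0.08 and -0.02 in TTI-101 1 to 4. Every treated mouse lay above every control mouse, with means of -0.42 ± 0.33 and -0.05 ± 0.11 in control and treated mice (SD, n = 4 each). The difference between groups was 0.37, and 0.21 without Control 4. The cilia-linked mean alone differed by 0.12 and the general mean alone by -0.25, each with overlap. Of single genes, 2.96% had groups that did not overlap, and the classes were chosen with earlier results of these data known. Each class mean gives every gene equal weight, so that Tubb4a, the least abundant of the 6 genes, counted as much as Tubb4b.

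Pairs of isotypes gave the same mixture. The log2 ratio of Tubb4b to Tubb5 was 0.38, 0.58, 0.72 and 1.03 in Control 1 to 4 and 0.26, 0.91, 0.21 and 0.18 in TTI-101 1 to 4. TTI-101 1, 3 and 4 lay below every control mouse and TTI-101 2 lay between Control 3 and Control 4, so the groups overlapped around means of 0.68 and 0.39. The ratio of Tubb4b to Tubb4a, both cilia-linked, differed more, with mean log2 ratios of 4.6 ± 1.08 in control mice and 3.53 ± 0.69 in treated mice (SD, n = 4 each), and the groups overlapped. The log2 ratios were 3.78, 4.01, 4.42 and 6.17 in Control 1 to 4 and 3.36, 4.55, 3.00 and 3.21 in TTI-101 1 to 4. Control 4 held the highest value and raised the control mean.

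The log2 ratio of Tuba1a to Tuba1c was 2.11, 2.27, 2.19 and 1.42 in Control 1 to 4 and 2.59, 2.31, 2.72 and 2.49 in TTI-101 1 to 4. Every treated mouse lay above every control mouse, with Control 4 lowest, although TTI-101 2 and Control 2 lay close together at 2.31 and 2.27. This was the only pair compared whose groups did not overlap, where 2.96% of single genes had groups that did not overlap. The mean log2 ratio of Tuba1a to Tuba1b was 0.0449 in control and 0.208 in treated mice, with overlap. That of Tuba1c to Tuba1b was -1.95 in control and -2.32 in treated mice, also with overlap. The division of reads between these isotypes is uncertain.

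The remaining isotypes included 1 that passed an unadjusted p of 0.05. Tuba4a (ENSMUSG00000026202, chromosome 1, 75214228 to 75219865, minus strand), the alpha isotype encoded without a terminal tyrosine, was at 60.6, 66.7, 71.4 and 82.3 CPM in Control 1 to 4 and at 47.6, 68.5, 55.2 and 48.7 CPM in TTI-101 1 to 4. TTI-101 1, 3 and 4 lay below every control mouse, and TTI-101 2 lay inside the control range.

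Tuba4a averaged 70.2 ± 9.19 CPM in control mice and 55.0 ± 9.61 CPM in treated mice (SD, n = 4 each). The log2 fold change was -0.35 (standard error 0.16, edgeR unadjusted p = 0.0492, adjusted p = 0.657), and it was -0.26 without Control 4. The unadjusted p of Tuba4a was under 0.05 in 5 of 18 alternatives, and by DESeq2 it was 0.0676.

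Tubb2a (ENSMUSG00000058672, chromosome 13, 34074274 to 34078007, minus strand), a beta isotype of neurons and other differentiated cells, was at 66.3, 65.3, 60.9 and 41.1 CPM in Control 1 to 4 and at 62.2, 53.3, 88.7 and 71.0 CPM in TTI-101 1 to 4. TTI-101 3 and 4 lay above every control mouse, and Control 4 was the lowest of all. Tubb2a had a log2 fold change of 0.24 (standard error 0.20, edgeR adjusted p = 0.727), and 0.11 without Control 4.

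Tubb2b (ENSMUSG00000045136, chromosome 13, 34126748 to 34130466, minus strand) had the fewest counts, 75 to 172 per library, with control mice at 4.94 to 6.10 CPM and treated mice at 4.56 to 7.62 CPM. Its log2 fold change was 0.04 (standard error 0.23, edgeR adjusted p = 0.965). Tubb6 (ENSMUSG00000001473), a beta isotype 80.2 to 83.6% identical to the other 5 in its coding sequence, was at 22.6 to 28.1 CPM in control mice and 24.2 to 38.9 CPM in treated mice. Its log2 fold change was 0.09 (standard error 0.19, edgeR adjusted p = 0.891), and it was -0.10 without TTI-101 3.

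Each family was also described by its composition, as the share of each isotype in the summed CPM per kilobase of its family in the same mouse. The size of a share carries the same uncertainty over reads that match several genes. Tubb4b made up 53.1, 56.9, 60.3 and 67.9% of beta-tubulin in Control 1 to 4 and 50.5, 62.2, 48.3 and 48.5% in TTI-101 1 to 4. TTI-101 1, 3 and 4 lay below every control mouse, and TTI-101 2 lay second only to Control 4. The means were 59.5 ± 6.28% and 52.4 ± 6.64% (SD, n = 4 each), a difference of -7.17 percentage points, or -4.40 without Control 4 and -10.5 without TTI-101 2.

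Other beta isotypes had a larger share on average in treated mice. Tubb2a averaged 9.90 ± 2.91% in Control and 12.7 ± 2.11% in TTI-101, Tubb5 averaged 23.3 ± 1.96% and 25.1 ± 2.84%, and Tubb4a averaged 2.61 ± 1.22% and 4.41 ± 1.35% (SD, n = 4 each). For each of these, 3 of 4 treated mice lay above every control mouse. Control 4 held the lowest control share of all of them. Its share was 0.884% for Tubb4a against 2.63 to 3.62% in the other controls, and 6.04% for Tubb2a against 9.60 to 12.9%. Shares within a family sum to 100%, so they are not independent of each other.

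Among alpha isotypes, Tuba1a made up 45.7, 47.0, 46.1 and 39.7% in Control 1 to 4 and 46.2, 49.8, 49.2 and 49.1% in TTI-101 1 to 4. TTI-101 2, 3 and 4 lay above every control mouse, and TTI-101 1 lay within the control range. The difference in means was 3.96 percentage points, or 2.31 without Control 4. Tuba1c averaged 8.93 ± 1.87% in Control and 6.68 ± 0.945% in TTI-101 (SD, n = 4 each), while Tuba1b averaged 41.5 ± 0.900% and 40.5 ± 2.86%.

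The summed level of each family overlapped between groups. Alpha isotypes summed to 382 ± 33.7 CPM per kilobase in Control and 352 ± 53.9 in TTI-101, and beta isotypes to 375 ± 43.7 and 337 ± 49.8 (SD, n = 4 each). Counting error was small beside the spread between mice, with 95% Wilson intervals of the Tubb4b and Tuba1a shares in raw counts reaching at most 1.00 percentage point to each side. These intervals cover counting error only.

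**Figure D4:**
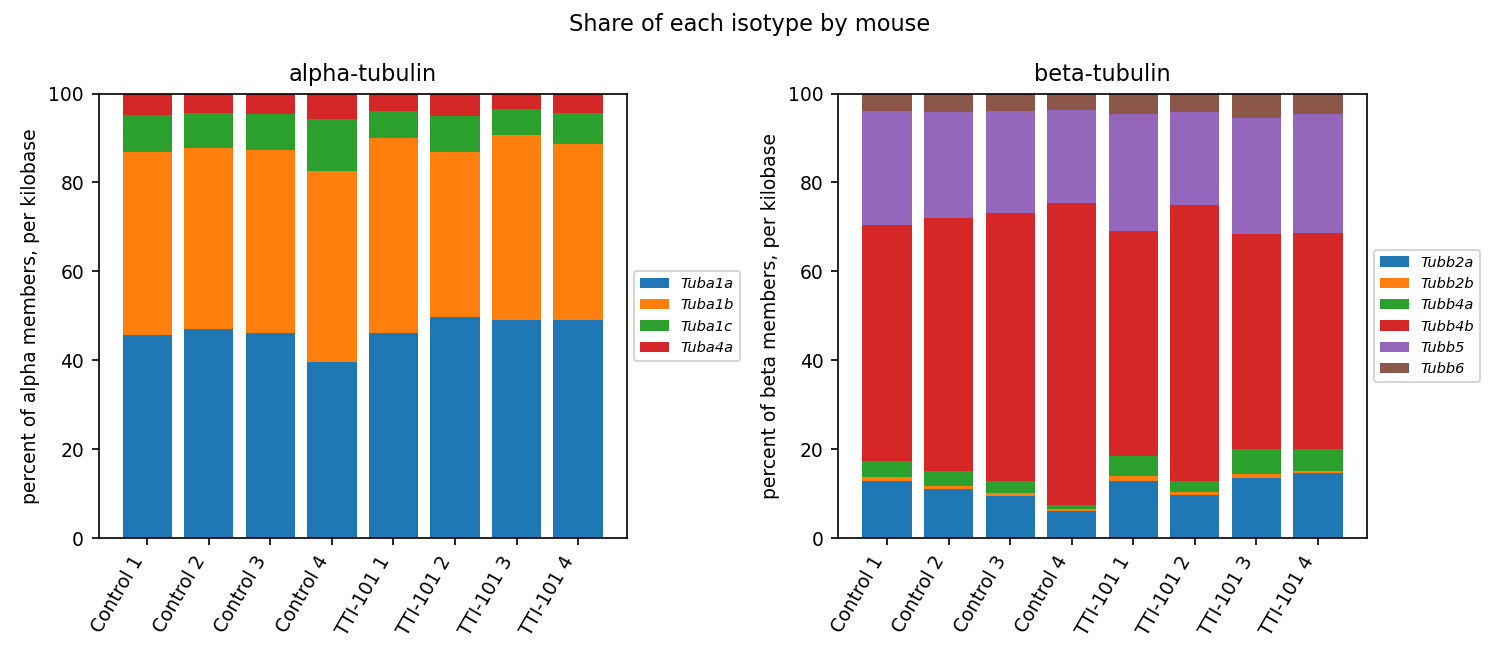
Stacked bars of the share of each isotype (y axis, percent of CPM per kilobase of the family) in each mouse (x axis), for the 4 alpha isotypes on the left and the 6 beta isotypes on the right. Tubb4b fills 48.3 to 67.9% of beta-tubulin, with Control 4 and TTI-101 2 highest, and Tuba1a and Tuba1b together fill most of alpha-tubulin in every mouse.

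The genes that act with these isotypes were read from lists by function. Of 10 other tubulin genes, 7 could be tested, and 2 of them were higher at an unadjusted p under 0.05 with 0 lower, where 3.02% of all genes were higher. Without TTI-101 3, 0 of the 7 passed beside 2.42% of all genes in either direction, and 3 passed without TTI-101 2 beside 14.2%. Tubg1, the gamma-tubulin that nucleates microtubules at the centrosome, was at 16.5 ± 2.66 CPM in Control and 24.2 ± 4.84 CPM in TTI-101 (SD, n = 4 each). All treated mice lay above all control mice, where 2.96% of all genes had groups that did not overlap. The margin was narrow, with Control 1 at 18.45 and TTI-101 1 at 19.75 CPM, and Control 4 was lowest at 12.66 CPM. The log2 fold change of Tubg1 was 0.55 (standard error 0.19, edgeR unadjusted p = 0.0159, adjusted p = 0.657).

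Tuba8, an alpha isotype of muscle and testis, was at 6.06 ± 1.99 CPM in Control and 10.8 ± 3.12 CPM in TTI-101 (SD, n = 4 each). Its estimate was 0.82 on the log2 scale (standard error 0.28, edgeR unadjusted p = 0.0155, adjusted p = 0.657). The median over the 7 genes was 0.55, beside 0.00 over all genes and -0.02 over the 10 isotypes, and 0.46 without Control 4.

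Of 21 tubulin folding genes, which include the prefoldin and CCT chaperonin subunits, 17 had a lower and 4 a higher estimate, with a median log2 fold change of -0.15. At an unadjusted p under 0.05, 1 was lower and 0 were higher, where 3.58% of all genes were lower. That gene was Tbca, a cofactor that holds beta-tubulin before dimer assembly, at 54.3 ± 6.44 CPM in Control and 42.9 ± 6.52 CPM in TTI-101 (SD, n = 4 each; log2 fold change -0.34, edgeR unadjusted p = 0.0499, adjusted p = 0.657). The count was 0 without Control 3, Control 4, TTI-101 1, TTI-101 3 or TTI-101 4, and 3 lower without Control 1 or TTI-101 2. Of all genes, 13.7% passed in either direction without Control 1 and 14.2% without TTI-101 2.

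Of 24 tested genes of tubulin modification, 1 was lower and 0 were higher at an unadjusted p under 0.05, no larger a share than over all genes (6.61% in either direction), with a median of -0.10. Agbl2, a carboxypeptidase that trims tubulin tails, was at 13.8, 30.7, 25.2 and 42.5 CPM in Control 1 to 4 and at 13.1, 23.8, 9.73 and 13.2 CPM in TTI-101 1 to 4. Treated mice 1, 3 and 4 lay below every control mouse. The log2 fold change of Agbl2 was -0.91 (standard error 0.35, edgeR unadjusted p = 0.0273, adjusted p = 0.657). The list gave 0 genes in either direction without Control 2, Control 4, TTI-101 1, TTI-101 3 or TTI-101 4. It gave 4 lower with 1 higher without TTI-101 2, where 14.2% of all genes passed in either direction.

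Of 30 tested microtubule-associated proteins, 2 were lower and 0 were higher at an unadjusted p under 0.05, close to the 6.61% of all genes, with a median of -0.07. Tpx2, a spindle assembly factor, was at 10.2 ± 3.40 CPM in Control and 5.49 ± 1.47 CPM in TTI-101 (SD, n = 4 each; log2 fold change -0.88, edgeR unadjusted p = 0.0126, adjusted p = 0.657). Map7, which recruits kinesin to microtubules, was at 55.7 ± 11.5 CPM and 43.2 ± 4.21 CPM (SD, n = 4 each; log2 fold change -0.37, edgeR unadjusted p = 0.0465, adjusted p = 0.657). The list gave 1 lower gene without Control 3, Control 4 or TTI-101 1, 3 or 4. It gave 5 lower with 1 higher without TTI-101 2, where 14.2% of all genes passed in either direction.

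Markers of cell types that use these isotypes varied among the mice. All 18 tested markers of motile cilia cells had a lower estimate in TTI-101-treated lungs, 10 of them at an unadjusted p under 0.05 beside 3.58% of all genes, with a median log2 fold change of -0.82. Without Control 4, 2 of 18 passed beside 3.03% of all genes in either direction, and the median was -0.44. Without TTI-101 2, 17 of 18 passed beside 14.2% of all genes, and the median was -1.19. The count was 3 without TTI-101 1, 3 without TTI-101 3 and 4 without TTI-101 4, beside 4.08, 2.42 and 4.34% of all genes. None passed an adjusted p of 0.05. Their summed level was 496 to 1594 CPM in control mice and 420 to 947 CPM in treated mice, and none of them was at 0.

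Foxj1, the transcription factor of motile ciliogenesis, was at 102, 179, 196 and 303 CPM in Control 1 to 4 and at 84.3, 270, 137 and 74.0 CPM in TTI-101 1 to 4. Dnah5, an axonemal dynein heavy chain, was at 38.4, 72.8, 66.4 and 184 CPM in Control 1 to 4 and at 28.3, 71.3, 23.5 and 32.96 CPM in TTI-101 1 to 4. Control 4 was highest for both genes, and TTI-101 2 was the highest treated mouse for both. The same mice held the highest Tubb4b level of their group, while Tubb4a was lowest in each group in exactly these mice.

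The log2 fold change of Dnah5 was -1.21 (standard error 0.48, edgeR unadjusted p = 0.0295, adjusted p = 0.657), and that of Foxj1 was -0.46 (standard error 0.42, edgeR adjusted p = 0.746). The log2 fold changes of Tubb4b, Tuba1a and Tubb4a were -0.35, 0.01 and 0.66. The part of motile cilia cells in the isotype values was not tested.

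The proliferation list was lower as well, with all 17 genes at a lower estimate, 7 of them at an unadjusted p under 0.05 beside 3.58% of all genes, and a median log2 fold change of -0.45. Without Control 4, 3 of 17 passed beside 3.03% of all genes in either direction, and the median was -0.36. The count was also 3 without TTI-101 1 or TTI-101 4, beside 4.08 and 4.34% of all genes. It was 4 without Control 2 or TTI-101 3, beside 6.51 and 2.42%. The summed level was 211 to 328 CPM in Control and 164 to 203 CPM in TTI-101, without overlap, and none of the 17 was at 0. Of single genes, 2.96% had groups that did not overlap.

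Mki67, a marker of cycling cells, was at 17.5, 26.1, 24.3 and 58.5 CPM in Control 1 to 4 and at 12.7, 18.9, 13.6 and 14.1 CPM in TTI-101 1 to 4, a log2 fold change of -1.09 (edgeR unadjusted p = 0.00859, adjusted p = 0.657). Top2a, which untangles DNA in dividing cells, was at 14.8, 22.1, 18.03 and 34.5 CPM in Control and at 12.02, 17.7, 12.8 and 14.2 CPM in TTI-101, a log2 fold change of -0.66 (edgeR unadjusted p = 0.0302, adjusted p = 0.657). Aurka and Cenpf, a mitotic kinase and a kinetochore protein, had log2 fold changes of -0.76 and -1.17 (edgeR unadjusted p = 0.0131 and 0.0145). The log2 fold changes of the general isotypes Tuba1c, Tuba1b and Tubb5 were -0.54, -0.15 and -0.04. The part of dividing cells was not tested.

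Other markers also separated Control 4 from the rest. The mean log2 CPM of 6 endothelial markers was 8.54, 8.52, 8.35 and 7.08 in Control 1 to 4 and 8.85, 8.18, 8.98 and 8.99 in TTI-101 1 to 4, and that of 5 club cell markers was 10.1, 10.9, 11.2 and 11.5 in Control and 9.90, 10.8, 10.4 and 9.89 in TTI-101. Endothelial markers were lowest and club cell markers highest in Control 4, in which Tubb4a and Tubb2a were the lowest and Tubb4b, Tuba1c and Tuba4a the highest of all 8 mice. Summed endothelial markers were at 876 to 2470 CPM in control mice and at 1941 to 3504 CPM in treated mice, and 0 of 6 passed an unadjusted p of 0.05. The part of cell composition in the isotype values was not tested.

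**Figure D5:**
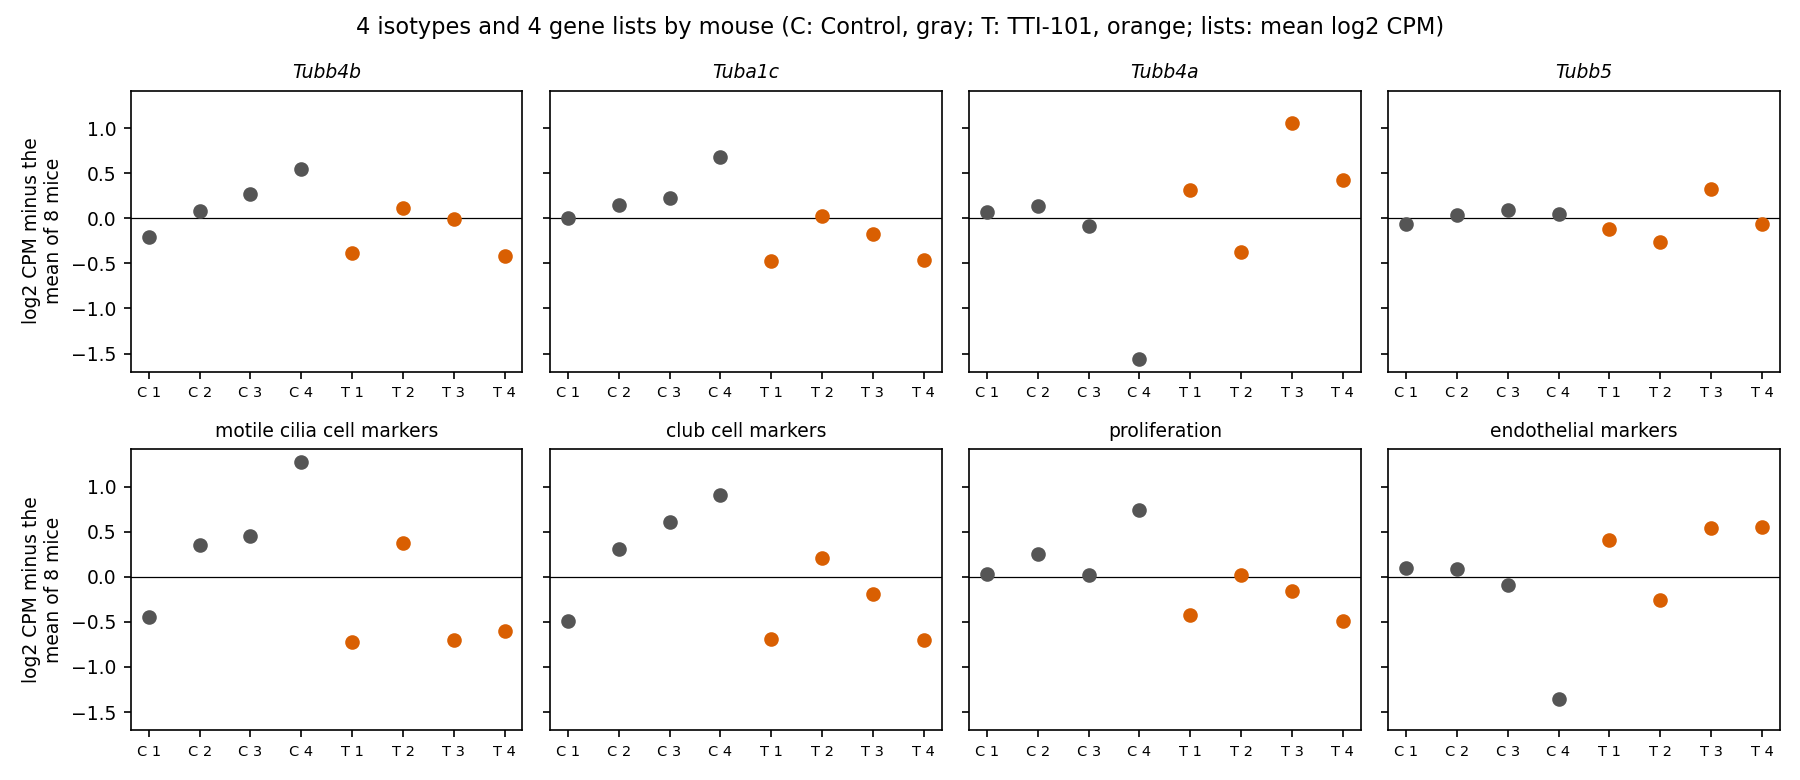
The log2 CPM minus the mean of the 8 mice (y axis) for 4 isotypes in the upper row and the mean of 4 gene lists in the lower row, with 1 point per mouse (x axis, C for Control in gray and T for TTI-101 in orange). Control 4 is the highest mouse for Tubb4b, Tuba1c and the motile cilia, club cell and proliferation lists, and the lowest for Tubb4a and the endothelial list, while Tubb5 stays within a narrow band.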

How the data were processed

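The authors deposited whole-number read counts per Ensembl gene, without normalization, for 8 whole-lung libraries (poly(A) selection, a stranded kit and paired ends on the Illumina platform). The submitters' processing notes name STAR, DESeq2 and mm10. Versions, the counting tool, its strand setting and its treatment of multiply matching reads are not given in the sources used here. Groups came from the treatment labels.

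Tests were run with edgeR 4.0.16, DESeq2 1.42.0 and limma 3.58.1 under R 4.3.3. Of the 54532 genes, 17138 passed filterByExpr (minimum count 10). After TMM scaling, groups were compared by robust quasi-likelihood F-tests with Benjamini-Hochberg adjustment over all genes tested. CPM were computed on TMM-adjusted library sizes, and log2 CPM used a prior count of 2. The fits were tested on simulated data. The alternatives were other tools, scalings, filters, covariates and libraries left out. The data had been seen when 2 alternatives were added: omitting both Control 4 and TTI-101 2, and the gene lists with libraries omitted.

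The isotypes, classes and lists were chosen with earlier results of these data known. The genes named were the 10 isotypes, up to 3 genes per pathway list with the lowest p under 0.05, Foxj1, Dnah5, Mki67, Top2a, and the 5 genes most like Tubb4b, Tuba1a and Tubb5. Stk16, Tubb1, Gp1bb and the pseudogenes were named after their values were seen, and Xist because it served as a covariate. The labels give separate samples without naming cages or litters, so p-values measure only the spread between these samples. The tail sequences of the alpha isotypes are not reported here.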

Additional observations from a re-analysis of the deposited data

Results flagged for a closer look

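In 4 of 24 groups of 4 mice, 1 mouse lay far from the other 3, with a gap that took up more than 0.829 of the group's range. Chance would give 1.2 such groups of 24. Tubb6 in TTI-101 3 was at 38.9 CPM against 24.2 to 24.9 CPM in the other treated mice, and the gap was 0.951 of the range. The positive log2 fold change of Tubb6 rested on this mouse. Tubb2b in Control 3 was at 4.94 CPM against 5.95 to 6.10 CPM, a gap of 0.872 of the range. Tuba1b in Control 1 was at 257 CPM against 306 to 316 CPM, a gap of 0.837. The share of Tubb4b in beta-tubulin was 62.2% in TTI-101 2 against 48.3 to 50.5% in the other treated mice, a gap of 0.843, and this mouse also had the highest Foxj1 and Dnah5 levels of its group.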

How the results depend on the processing

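The count of isotypes at an unadjusted p under 0.05 was 1, in place of 2, with the Wald test or the size factors of DESeq2, with library totals, without a filter, with a filter of 10 counts in each library, with only protein-coding genes and with Xist as a covariate, and 1 to 3 with 1 mouse left out. It was 3 without Control 1, which added Tubb4b, and without TTI-101 2, which added Tubb4a, and 1 without any of the other 6. Of all genes, 13.7% passed without Control 1 and 14.2% without TTI-101 2. No setting called an isotype at an adjusted p under 0.05. Over all genes, the adjusted count was 4 by DESeq2, 1 with the Xist covariate and 0 to 1 with 1 mouse left out, and the unadjusted count was 1849 with no filter, 422 (without TTI-101 3) to 2498 (without TTI-101 2) with 1 mouse left out, and 2106 without Control 4 and TTI-101 2. The difference between cilia-linked and general medians ranged from 0.0898 to 0.217 with 1 mouse left out. The Tubb4b share differed by -10.5 to -4.40 points and the Tuba1a share by 2.31 to 4.75 points in the same way. Tuba1a turned to -0.0014 with limma-voom, -0.0010 with the replicate block and -0.08 without Control 4 and TTI-101 2, and ranged from -0.102 to 0.0778 with 1 mouse left out. With 1 mouse left out, Tubb2b ranged from -0.0964 to 0.152, Tubb5 from -0.173 to 0.0415 and Tubb6 from -0.105 to 0.157, and Tubb5 was 0.0288 and Tubb6 0.170 without Control 4 and TTI-101 2. The cause was not tested. Tubb4a, Tubb4b, Tuba1b, Tuba1c, Tuba4a and Tubb2a kept their direction in all 18 alternatives. Mice of the same replicate number had correlations of their deviations of 0.0707 to 0.393, and mice of different numbers had -0.421 to 0.167. Not every mouse was closest to its own number. Xist was at 400 to 450 CPM in mice 1 and 2 of each group and at 0.167 to 2.11 CPM in mice 3 and 4, so the replicate numbers went with Xist. Whether the replicate numbers pair the mice in any other way cannot be decided from these values. The replicate block gave 2 isotypes and 1298 genes at an unadjusted p under 0.05. Library totals moved the median of all genes to 0.04. Tubb2b had at most 172 counts per library.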

Other observations

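The genes whose log2 CPM over the 8 mice lay closest to that of Tubb4b, by the root mean square difference after centring, were Slc9a3r1 (0.0453), an epithelial scaffold protein, Bsg (0.0617), a transporter chaperone of the cell surface, Pfdn2 (0.0620), a prefoldin subunit, Rps2 (0.0651), a ribosomal protein, and Gpx8 (0.0681), where the median over all genes tested was 0.438. None of these 5 is in the motile cilia list, and Pfdn2 is in the tubulin folding list. The root mean square difference counts the size of the variation among mice as well as its pattern. Dnah5 ran from 23.5 to 184 CPM where Tubb4b ran from 306 to 598 CPM. A gene with the pattern of Tubb4b but a wider range would thus not be placed near it. Closest to Tuba1a were Yju2 (0.0587), A430005L14Rik (0.0617), Phf23 (0.0628), Trmt12 (0.0630) and Pdap1 (0.0641), against a median of 0.375. Closest to Tubb5 were Rrs1 (0.0533), Jkamp (0.0747), Chid1 (0.0791), Eif3f (0.0801) and Tmem206 (0.0871), against a median of 0.358.

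Tubulin pseudogenes received few counts. Tubb4b-ps1 had 850 counts over the 8 libraries, 1.34% of those of Tubb4b, and Tubb4b-ps2 and Tubb2a-ps2 had 5 and 1. Stk16, which overlaps Tuba4a on the opposite strand, had 8661 counts over the 8 libraries beside 9538 of Tuba4a. Among the tubulins outside the 10 isotypes, Tubb1, the beta isotype of platelets, was at 4.17 ± 1.05 CPM in Control and 9.10 ± 5.42 CPM in TTI-101 (SD, n = 4 each; log2 fold change 1.12, edgeR unadjusted p = 0.0521, adjusted p = 0.657).

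Markers of other cells also differed in level. The 6 B cell markers were all higher in TTI-101-treated lungs at an unadjusted p under 0.05 (edgeR), where 3.02% of all genes were higher. Their median log2 fold change was 1.17. Without Control 4, 6 of 6 passed beside 3.03% of all genes in either direction, with a median of 0.97. With 1 mouse left out, 4 to 6 of them passed beside 2.42 to 14.2% of all genes, with 4 without Control 2, Control 3 or TTI-101 1. Of 5 tested red cell markers, 4 were higher at an unadjusted p under 0.05 beside 3.02% of all genes, with a median of 2.50. Of 5 tested platelet markers, 1 was higher and 1 lower at an unadjusted p under 0.05, with a median of 0.45, and 0 passed as higher without Control 1, 2 or 4 or TTI-101 3 or 4. Gp1bb was at 0 in every library. The median log2 fold changes, with the range over each mouse left out in turn, were 0.61 for T cell (0.42 to 0.98), 0.40 for alveolar type 1 (0.17 to 0.49), -0.40 for alveolar type 2 (-0.58 to -0.20), 0.35 for alveolar macrophage (0.15 to 0.84) and 0.29 for fibroblast markers (0.16 to 0.46). The median of smooth muscle markers was 0.10 and turned to -0.12 without Control 4, -0.01 without Control 1 and -0.08 without TTI-101 2. That of neuron markers was 0.36 and turned to -0.65 without TTI-101 2. That of cardiomyocyte markers was 0.81, with 0.43 without Control 4, 0.25 without TTI-101 2 and -0.13 without both. The mean log2 CPM of cardiomyocyte markers was 1.51 in Control 4 and 5.21 to 7.45 in the other mice. None of the genes of these lists passed an adjusted p of 0.05.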
